A study of Homo sapiens with 20 samples.

Results

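The BCL2 family genes BBC3, PMAIP1, BCL2L11, BIK, BID, BAX, BAK1, BCL2, BCL2L1 and MCL1 were followed in LNCaP, an established cell line of androgen-responsive human prostate cancer. They were taken by name from the annotated features of the array. Where a gene had several features, the one with the highest mean log2 intensity was to be used, but each of the 10 had 1. All 10 were measured and tested, among 18417 genes in all. RNA was hybridised to 20 arrays in 7 groups, with 3 arrays in each group but early S, which had 2. The CDT control held cells kept for 72 h in CDT, as the labels name that medium, and given ethanol for 3 h. The CDT + DHT group had the same 72 h and then 10 nM dihydrotestosterone (DHT), a potent natural androgen, for 3 h. The other 5 groups were arrested in hormone-proficient medium, with 10 nM DHT added 3 h before harvest. Early G1 cells had 0.5 µM PD-0332991, an inhibitor of the cyclin D kinases CDK4 and CDK6, for 24 h. Late G1 cells had 5 µg/mL roscovitine, an inhibitor of CDK2 and of kinases that act in transcription, for 24 h. Early S cells had 2 µg/mL aphidicolin, which blocks replicative DNA polymerases, for 24 h. Late S cells had 1 mM hydroxyurea, which depletes deoxynucleotides, for 24 h. G2/M cells had 2 µg/mL aphidicolin for 15 h, a wash, and 50 ng/mL nocodazole, a microtubule poison, for 9 h. Arrests without added DHT were not analysed here. Between an arrest and CDT + DHT the drug, the medium and the cell cycle phase cannot be told apart, and against CDT the DHT differs with them. Each arrest was made with its own drug or drug schedule, so phase and drug cannot be told apart among the arrests either.

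The BCL2 family decides whether the outer mitochondrial membrane is opened to release cytochrome c, the step that commits a cell to intrinsic apoptosis. BAX and BAK1 are the effectors that form the pore. BCL2, BCL2L1 (BCL-XL) and MCL1 hold them in check. The BH3-only proteins, here BBC3 (PUMA), PMAIP1 (NOXA), BCL2L11 (BIM), BIK and BID, bind the guardians or the effectors and tip the balance. BBC3, PMAIP1 and BAX are textbook targets of the tumour suppressor p53, whose gene is wild type in LNCaP. MCL1 has a short-lived messenger RNA and protein.

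The DNA before the transcription start is shown for the 4 members with the smallest adjusted p-values in any comparison, to set the proximal promoters of BBC3, BAX, BAK1 and BCL2L1 side by side. The sequences are the 250 bases before the start of the gene, 5′ to 3′ on its own strand, from RefSeq for GRCh38.p14. Capitals mark matches on either strand. The motifs searched were the GC box, with the letters GGGCGG, and the CCAAT box, whose name is its letters. The TATA box, with the letters TATAAA, the E-box, with the letters CACGTG, and the p53 decamer motif were searched as well. The BBC3 stretch lies at chr19:47232668-47232917 on the minus strand, BAX at chr19:48954625-48954874 on the plus strand, BAK1 at chr6:33580277-33580526 on the minus strand and BCL2L1 at chr20:31723964-31724213 on the minus strand.
BBC3: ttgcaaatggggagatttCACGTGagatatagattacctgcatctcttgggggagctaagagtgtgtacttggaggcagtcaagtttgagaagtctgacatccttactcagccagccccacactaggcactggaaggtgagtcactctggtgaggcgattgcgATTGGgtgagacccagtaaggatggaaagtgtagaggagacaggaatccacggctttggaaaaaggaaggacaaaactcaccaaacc
BAX: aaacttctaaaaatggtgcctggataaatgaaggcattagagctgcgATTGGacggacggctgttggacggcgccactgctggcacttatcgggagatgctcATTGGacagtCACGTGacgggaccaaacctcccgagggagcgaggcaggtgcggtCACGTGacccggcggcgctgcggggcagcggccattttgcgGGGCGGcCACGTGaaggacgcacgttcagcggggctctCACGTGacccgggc
BAK1: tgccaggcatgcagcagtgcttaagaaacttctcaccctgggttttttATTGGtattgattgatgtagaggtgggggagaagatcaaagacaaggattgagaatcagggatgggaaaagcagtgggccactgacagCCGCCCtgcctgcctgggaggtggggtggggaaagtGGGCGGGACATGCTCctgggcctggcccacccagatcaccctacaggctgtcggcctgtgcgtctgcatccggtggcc
BCL2L1: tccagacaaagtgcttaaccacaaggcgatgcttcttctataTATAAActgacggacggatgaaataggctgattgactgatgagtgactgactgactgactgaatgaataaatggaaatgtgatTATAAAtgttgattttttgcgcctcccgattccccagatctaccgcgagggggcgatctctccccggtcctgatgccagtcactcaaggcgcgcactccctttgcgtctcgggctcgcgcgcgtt

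Motifs were counted in windows from 250 bases before to 50 bases after the start, which the RefSeq table holds for 8 of the 10 genes. BIK and MCL1 were not matched. The first listed start was used for BCL2L1, which had 2, and for BID, which had 5. The E-box was added after the windows had been seen, and BAX held 4 of them, at 138, 93, 45 and 14 bases before the start. BBC3 held 1 E-box at 232 bases before the start, and no other member held any. Of all 27305 windows, 7.43% held at least 1. The GC box was in 5 of the 8 members (BAX, BAK1, BID, BCL2L11 and PMAIP1) and in 44.6% of all windows. The CCAAT box was in 4 members (BBC3, BAX, BAK1 and BCL2L11) and in 35.7% of all windows. The TATA box was in BCL2L1 alone among the 8, at 208 and 125 bases before the start, and in 12.0% of all windows. The p53 decamer motif was in BAK1 alone, 73 bases before the start, where it shares a base with a GC box, and in 6.54% of all windows. The windows of BBC3 and BCL2L1 had a GC content of 48.0% and 52.0%, under the median of 58.3% over all windows, and the 6 others ran from 58.7% in BAK1 to 74.7% in BCL2L11. These matches describe the letters in the window and were not tested against the array values.

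Values are log2 of the deposited intensity plus 1, and differences between groups are on that scale, ± SE from limma. Such differences understate the change of dim genes, and a gene's level is not comparable with that of another gene, since probes differ. Ranked by mean intensity among all genes tested, MCL1 lay at percentile 89.84, BBC3 at 83.96 and BCL2L1 at 80.09. BAK1 at 42.4 and BCL2L11 at 37 were the 2 members under the median gene. Array medians ran from 5.44 to 9.08 intensity units. Arrays of the same group correlated between 0.581 and 0.935, and 43.8% of the variance within groups lay on 1 axis over the brighter genes. Late S replicate 1, early G1 replicate 2, CDT replicate 1 and CDT + DHT replicate 3 were the 4 arrays nearest to one end of it. The luminal prostate markers KLK3, KLK2, HOXB13, KRT8 and KRT18 averaged 5.96 to 8.08 per array. The leukocyte, stromal and basal lists averaged 1.65 to 3.54, 1.82 to 3.93 and 2.41 to 4.41. FOLH1 and TP63 were not tested here. Whether the replicates came from separate cultures is not in the labels, and the p-values cover the spread between these arrays, which may be technical. In bulk RNA, a change in some of the cells and a change in each cell cannot be told apart.

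None of the 10 members passed an adjusted p of 0.05 in any of the 14 comparisons or in the F test among the 5 arrests (limma, Benjamini-Hochberg over all 18417 genes). At an unadjusted p under 0.05, 28 of the 140 member differences passed. These differences share arrays and genes, so they are not separate results. The following paragraph gives the count for each comparison beside its share of all genes, which ran from 2.30% to 15.1%. Against CDT + DHT, the genes that passed after adjustment were 0.516% of all genes for late G1, 0.440% for G2/M, 0.0706% for late S, 0.00543% for early S and 0% for early G1. Against CDT they were 0.109% for G2/M, 0.103% for late G1, 0.0977% for late S, 0.0326% for early S and 0.00543% for early G1. CDT + DHT against CDT gave 0%, late G1 against the mean of the other arrests 0.706%, late G1 against early G1 0%, the S arrests together against early G1 0.0271%, and the F test 0.255%. All of these shares are under 1%, so a count of 0 among 10 members is near the background.

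In late G1 against CDT + DHT, 4 of the 10 members had an unadjusted p under 0.05, 1 higher and 3 lower, against 14.0% of all genes. In late G1 against the other arrests, 4 also passed it, 1 higher and 3 lower, against 10.5% of genes. The median difference of the 10 members there was -0.64 and that of all genes -0.09. Of the members 2 lay above 0, where 44.7% of all genes did. In late G1 against early G1, 3 passed it, against 7.10%. In G2/M and in late S against CDT + DHT, 3 members each passed it, 2 higher and 1 lower, against 15.1% and 10.2% of genes. For early S and for early G1 against CDT + DHT, 1 member each passed it, against 7.62% and 8.07%. Against CDT, 0 members passed it for G2/M (7.05% of genes), 2 for late S (5.94%), 1 for late G1 (9.06%), 2 for early G1 (5.11%) and 1 for early S (5.57%). In CDT + DHT against CDT, 2 passed it (6.86%), and in the S arrests together against early G1, 1 did (2.30%). In the F test, 2 did, BBC3 and BAX (6.89%). The comparisons with CDT + DHT share its 3 arrays, and those with CDT share theirs.

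**Figure D1:**
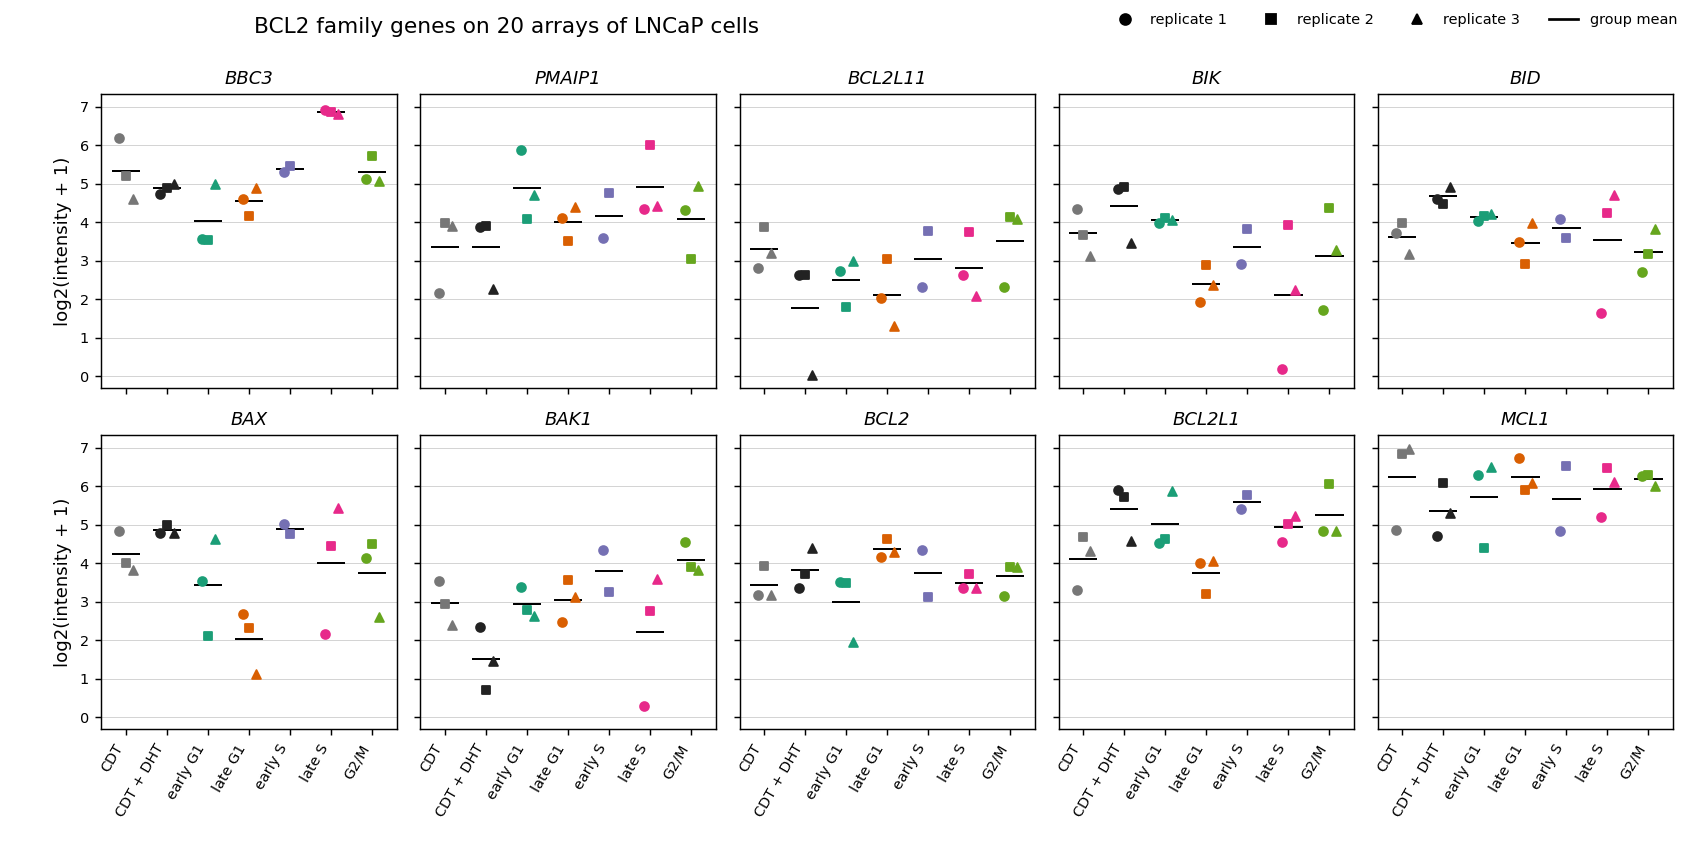
Level of each BCL2 family gene as log2(intensity + 1) on the vertical axis, by group on the horizontal axis, with each array as a point, its shape the replicate number, and the group mean as a line. The 3 late S arrays of BBC3 lie at 6.82 to 6.91, above the other 17 arrays, while in the other panels no group stands fully clear of the rest. The share of all genes with such a group was not computed.

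BBC3, which encodes the BH3-only protein PUMA, had the smallest p of the members in the F test among the arrests. In late S it lay at 6.91, 6.86 and 6.82, above each of the other 17 arrays, whose highest was CDT replicate 1 at 6.18. Separations of this kind, here and for the members below, were not counted over all genes, so they cannot show a trait of these members. In early S it lay at 5.31 and 5.47, and in G2/M at 5.12, 5.72 and 5.07. In CDT + DHT it lay at 4.74, 4.90 and 4.99, and in late G1 at 4.60, 4.17 and 4.90. Early G1 had the lowest mean, with 2 arrays at 3.57 and 3.55 and the other at 4.98. CDT spread over 6.18, 5.21 and 4.59. In order of the group means, late S stood clear of early S, with 1.48 between the means and no overlap of arrays. Early S, CDT and G2/M then overlapped. G2/M lay above CDT + DHT by 0.42 without overlap, and CDT + DHT, late G1 and early G1 overlapped from neighbour to neighbour.

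BBC3 was higher by 1.99 ± 0.50 in late S than in CDT + DHT, about 3.96-fold on this scale, which did not pass over all genes (adjusted p = 0.159). Leaving out each array in turn kept this difference between 1.92 and 2.04. The spread among the 3 late S arrays of BBC3 was small, with an SD of 0.05, while the fit shares the spread of all groups, early G1 and CDT among them. With a pseudocount of 16, which weighs dim arrays less, BBC3 was higher by 1.57 and passed (adjusted p = 0.00782), and with array weights it passed as well. Over all alternatives this adjusted p ranged from 0.00304, with array weights, to 0.571. The latter came from the fit of late S and CDT + DHT alone, without the spread of the other groups. Against CDT the difference was 1.54 ± 0.50 (adjusted p = 0.554). The S arrests together lay above early G1 by 2.09 ± 0.45 (adjusted p = 0.274), which also passed with the pseudocount of 16, at 1.42 (adjusted p = 0.0145, in a range of 0.0145 to 1.00). In the F test among the arrests BBC3 had an adjusted p of 0.0760, and it ranked 65th of the genes by that test.

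CDKN1A, the p53 target that encodes the CDK inhibitor p21, and MDM2, the p53 target that encodes the ligase for p53, were set beside BBC3. CDKN1A rose by 3.88 ± 0.59 in late S against CDT (adjusted p = 0.0123). In the S arrests together it rose by 3.46 ± 0.53 against early G1 (adjusted p = 0.0188). Its means were 8.85 in late S and 6.43 in CDT + DHT, a difference that did not pass, as for BBC3. In late S it lay at 8.34, 8.94 and 9.28, in early S at 8.43 and 8.54, and in G2/M at 7.52, 8.13 and 7.54. All 8 of those arrays lay above the 12 others, whose highest was 6.73 in CDT + DHT replicate 1. MDM2 rose by 3.87 ± 0.83 in G2/M against CDT + DHT (adjusted p = 0.0472), a call lost under 17 of 31 alternatives, the replicate block among them. The difference was 2.40 with a pseudocount of 16. MDM2 means were 6.68 in G2/M, 6.42 in late S and 6.04 in early S, and 4.43 to 4.86 in CDT, early G1 and late G1. Its lowest mean was that of CDT + DHT, at 2.81. The CDKN1A calls were lost in 4 of 31 alternatives against CDT and in 9 of 31 against early G1. BBC3 differs from CDKN1A in that early S and G2/M overlap CDT.

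**Figure D2:**
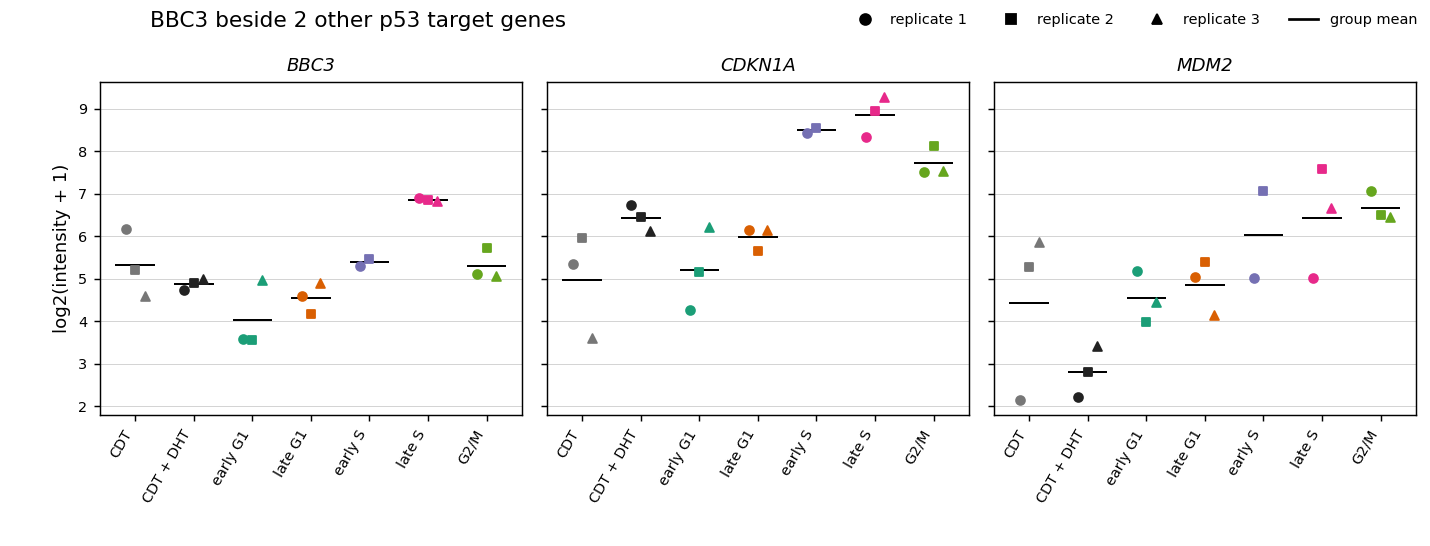
BBC3, CDKN1A and MDM2 as log2(intensity + 1) on the vertical axis by group on the horizontal axis, with each array as a point and the group mean as a line. CDKN1A is high in early S, late S and G2/M, while BBC3 stands apart in late S only.

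PMAIP1, which encodes the BH3-only protein NOXA and is also a p53 target, spread widely within groups. In early G1 it lay at 5.88, 4.08 and 4.71, and in late S at 4.36, 5.99 and 4.43. In CDT it lay at 2.15, 3.99 and 3.90, and in CDT + DHT at 3.87, 3.90 and 2.26. These arrests lay above both CDT groups without overlap, by 1.55 ± 0.70 in early G1 and 1.58 ± 0.70 in late S, against CDT + DHT and against CDT alike. Adjusted p-values ran from 0.465 in late S against CDT + DHT to 0.955 in early G1 against CDT. The lowest CDT array, replicate 1, and the lowest CDT + DHT array, replicate 3, are among the 4 arrays nearest to one end of the axis within groups. Without CDT + DHT replicate 3 alone, PMAIP1 lay 1.01 above CDT + DHT in early G1 and 1.04 above it in late S, and without CDT replicate 1 it lay 0.95 and 0.98 above CDT. Without all 4 of those arrays the differences from CDT + DHT were 1.41 and 1.33. Without late S replicate 2, the late S differences from CDT + DHT and from CDT were both 1.05. With a pseudocount of 16 these differences in early G1 and late S were 0.82 and 0.85 from CDT + DHT, and 0.81 and 0.84 from CDT. Late G1, early S and G2/M lay at 3.03 to 4.95 and overlapped every other group. The PMAIP1 means of late S and early G1 differed by 0.03, with overlapping arrays.

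BCL2L11 (BIM), a BH3-only protein that binds all the guardians, had the lowest rank of intensity among the members. Its largest difference was in G2/M, at 2.33, 4.13 and 4.10, against CDT + DHT, at 2.62, 2.62 and 0.03. That is 1.76 ± 0.75 (adjusted p = 0.271), with overlapping arrays. It was 0.90 without CDT + DHT replicate 3, whose intensity was near 0, and 0.51 with a pseudocount of 16. CDT, at 2.82, 3.87 and 3.21, also lay above CDT + DHT, which was lower than it by a difference of -1.54 ± 0.75 (adjusted p = 0.717). Without CDT + DHT replicate 3 this difference was -0.68, and with a pseudocount of 16 it was -0.38. BCL2L11 over the other arrests ran from 1.29 in late G1 to 3.78 in early S, and those arrests overlapped each other.

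BIK, a BH3-only protein of the endoplasmic reticulum, was low in late G1, at 1.93, 2.88 and 2.37. CDT + DHT lay at 4.87, 4.92 and 3.45, CDT at 4.35, 3.67 and 3.13, and early G1 at 3.99, 4.11 and 4.06. Late G1 thus lay below every array of these 3 groups. BIK differed by -2.02 ± 0.79 between late G1 and CDT + DHT (adjusted p = 0.250) and by -1.66 ± 0.79 between late G1 and early G1 (adjusted p = 0.698). With array weights the former passed (adjusted p = 0.0240, in a range of 0.0240 to 0.490 over all alternatives). In late S, BIK lay at 0.17, 3.94 and 2.23, a difference of -2.30 ± 0.79 from CDT + DHT (adjusted p = 0.357) that was -1.33 without late S replicate 1. It passed with array weights (adjusted p = 0.00661, in a range up to 0.695). With a pseudocount of 16 the BIK differences from CDT + DHT were -0.87 in late G1 and -0.81 in late S, and the one between late G1 and early G1 was -0.63.

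BID, the BH3-only protein that caspase-8 cleaves to link death receptors with mitochondria, had its highest mean in CDT + DHT, at 4.60, 4.48 and 4.92. Early G1, at 4.02, 4.17 and 4.20, lay below those arrays by a difference of 0.54 between the means. G2/M lay at 2.71, 3.16 and 3.83, a difference of -1.43 ± 0.63 from CDT + DHT (adjusted p = 0.288), or -0.71 with a pseudocount of 16. Late G1, at 3.49, 2.91 and 3.97, and early S, at 4.09 and 3.59, also lay below every CDT + DHT array. CDT, at 3.72, 3.97 and 3.17, lay below them as well, so CDT + DHT was higher by 1.05 ± 0.63 (adjusted p = 0.757). The late S arrays of BID spread over 1.63, 4.24 and 4.71, from below to inside the CDT + DHT range.

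BAX, the effector that moves from the cytosol into the mitochondrial membrane, had its lowest group mean in late G1. The late G1 arrays lay at 2.67, 2.33 and 1.13. CDT + DHT lay at 4.78, 4.99 and 4.79, early S at 5.01 and 4.75, and CDT at 4.84, 4.01 and 3.83. Those 3 groups lay wholly above late G1. The others reached into its range, with early G1 at 3.54, 2.10 and 4.62, late S at 2.15, 4.46 and 5.44, and G2/M at 4.12, 4.50 and 2.61. BAX differed by -2.81 ± 0.77 between late G1 and CDT + DHT, about 7.02-fold lower on this scale (adjusted p = 0.0986). Against CDT it differed by -2.18 ± 0.77 (adjusted p = 0.358), and against the mean of the other arrests by -1.97 ± 0.61 (adjusted p = 0.180). The first of these passed when only the brighter genes were tested, with eBayes trend and robust settings, with array weights, and without late S replicate 1. Its adjusted p ranged from 0.00941 to 0.306. Against the other arrests BAX passed with array weights, without late S replicate 1 (adjusted p = 0.0442) and without the 4 arrays that stood apart (adjusted p = 0.0170), in a range of 0.0170 to 0.617. With a pseudocount of 16 the BAX differences were -1.18 from CDT + DHT, -0.81 from CDT and -0.78 from the other arrests.

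BAK1, the effector that resides in the mitochondrial membrane, had its lowest mean in CDT + DHT, at 2.35, 0.71 and 1.46, where BAX had its highest mean but for early S. G2/M lay at 4.55, 3.91 and 3.81, early S at 4.34 and 3.26, late G1 at 2.46, 3.56 and 3.12, and early G1 at 3.38, 2.79 and 2.64. Every array of these 4 arrests lay above every CDT + DHT array, and so did CDT, at 3.53, 2.93 and 2.39. BAK1 was higher in G2/M than in CDT + DHT by 2.59 ± 0.69 (adjusted p = 0.0925), in early S by 2.29 ± 0.77 (adjusted p = 0.497) and in late G1 by 1.54 ± 0.69 (adjusted p = 0.323). The G2/M difference passed without late S replicate 1 (adjusted p = 0.0324), with a pseudocount of 16, where it was 0.83 (adjusted p = 0.0495), and with array weights, in a range of 0.00984 to 0.307. Against CDT, G2/M was higher by 1.14 ± 0.69 (adjusted p = 0.785), and CDT + DHT itself was lower by 1.45 ± 0.69 than CDT (adjusted p = 0.717). With the pseudocount of 16 the BAK1 differences from CDT + DHT were 0.70 in early S and 0.38 in late G1, that of G2/M from CDT was 0.49, and that of CDT + DHT from CDT was -0.35. BAK1 is dim, and its intensities can also carry RNA of its near-identical pseudogenes, so its values are uncertain.

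**Figure D3:**
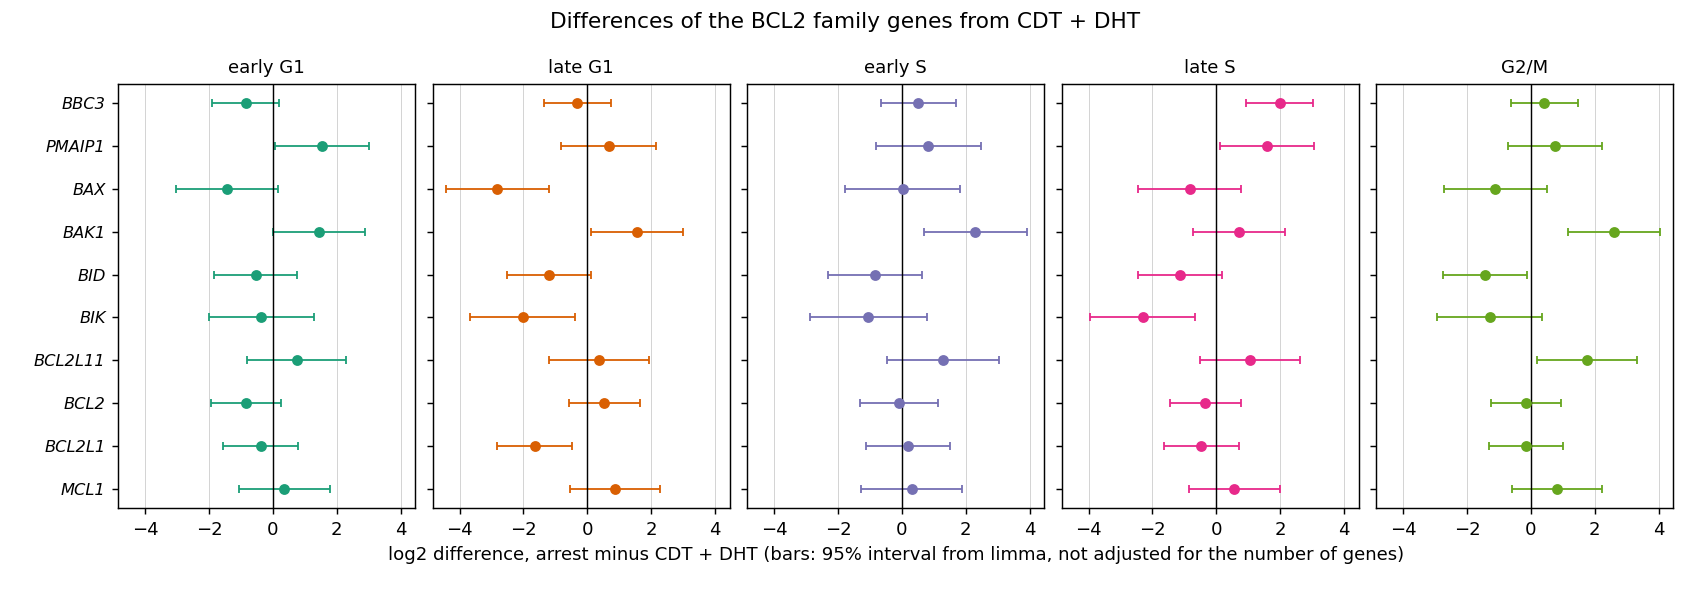
Difference of each BCL2 family gene from CDT + DHT on the log2 scale (horizontal axis), with 1 panel per arrest, points for the limma estimate and bars for its 95% interval, not adjusted for the number of genes. The points for BAX in late G1 at -2.81, BAK1 in G2/M at 2.59 and BBC3 in late S at 1.99 have intervals clear of 0. So do BIK in late S at -2.30 and in late G1 at -2.02. Also clear of 0 are BCL2L1 and BAK1 in late G1 and BAK1 in early S. The same holds for PMAIP1 in early G1 and late S, and for BID and BCL2L11 in G2/M.

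Late S replicate 1 was low for BAX (2.15), BAK1 (0.30), BID (1.63) and BIK (0.17), and high with its group for BBC3 (6.91). Without this array, the late S difference from CDT + DHT moved from -0.84 to 0.09 for BAX, from 0.71 to 1.66 for BAK1, from -1.14 to -0.19 for BID and from -2.30 to -1.33 for BIK. For BBC3 it was 1.99 with the array and 1.96 without it. The late S differences of BAX, BAK1 and BID therefore depend on this array, and that of BBC3 does not. That of BIK depends on late S replicate 2 as well, and was -3.22 without replicate 2.

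BCL2, the founding guardian, had its highest mean in late G1. There it lay at 4.16, 4.62 and 4.29, and in early G1 at 3.52, 3.49 and 1.95, its lowest. The difference between these arrests was 1.37 ± 0.52 (adjusted p = 0.573), and was 0.85 without early G1 replicate 3 and 0.59 with a pseudocount of 16. Against the mean of the other arrests, late G1 was higher by 0.89 ± 0.42 (adjusted p = 0.462), or by 0.42 with that pseudocount. The remaining groups ran from 3.13 to 4.40 and overlapped each other.

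BCL2L1, which encodes the guardian BCL-XL, had its lowest mean in late G1, as BAX did. The late G1 arrays lay at 3.99, 3.20 and 4.04, below all 11 other arrested arrays, whose lowest was 4.53 in early G1. Early G1 lay at 4.53, 4.63 and 5.87, early S at 5.40 and 5.77, late S at 4.55, 5.01 and 5.22, and G2/M at 4.85, 6.05 and 4.83. CDT + DHT, at 5.89, 5.73 and 4.57, also lay above late G1, while CDT, at 3.32, 4.67 and 4.32, overlapped it. BCL2L1 differed by -1.45 ± 0.45 between late G1 and the mean of the other arrests (adjusted p = 0.175) and by -1.65 ± 0.56 between late G1 and CDT + DHT (adjusted p = 0.188). With array weights both passed, in ranges of 0.0463 to 0.512 and 0.0150 to 0.417 over all alternatives. With a pseudocount of 16 they were -0.87 and -1.02. With DHT alone, BCL2L1 was higher by 1.29 ± 0.56 than in CDT (adjusted p = 0.696), with overlapping arrays. Late G1 thus held the lowest means of BAX, an effector, and of BCL2L1, a guardian, and the highest means of BCL2 and MCL1. The MCL1 mean lay only 0.00493 above that of CDT, with overlapping arrays.

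MCL1, the guardian with a short-lived transcript, passed no test. The late G1 arrays lay at 6.73, 5.89 and 6.08, and G2/M at 6.26, 6.28 and 6.00. Late S lay at 5.20, 6.47 and 6.11, early S at 4.83 and 6.52, and early G1 at 6.29, 4.38 and 6.50. CDT lay at 4.87, 6.84 and 6.97, and CDT + DHT at 4.71, 6.08 and 5.29. All neighbours in the order of the group means overlapped, from CDT + DHT at 5.36 to late G1 at 6.24. The late G1 mean lay above that of CDT by only 0.00493, and without CDT replicate 1 it lay below it, at a difference of -0.67. Late G1 also lay below early G1 without early G1 replicate 2, at a difference of -0.16, against 0.51 with it. Late G1 differed from the mean of the other arrests by 0.36 ± 0.54 (95% interval -0.77 to 1.49, adjusted p = 0.894). This interval still allows a lower level by 0.77. The exact permutation test of the 3 late G1 arrays against the 11 other arrested arrays gave a difference of 0.34 and a two-sided p of 0.50, where 364 splits allow a p of 0.00275 at the least. In the F test among the arrests MCL1 ranked 16876th of the genes (adjusted p = 0.983).

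The spread of MCL1 within groups moved with the place of the arrays on the axis. In 6 of the 7 groups its lowest array was the one farthest out on the side of late S replicate 1, and that count was 6 for BCL2L1 and PMAIP1 too. It was 4 for BBC3 and BCL2L11, 3 for BAX and BIK, and 2 for BAK1, BID and BCL2. The axis was computed over the brighter genes, MCL1, BCL2L1 and PMAIP1 among them. This count was not made for all genes, so it cannot show a trait of these members. The part of the axis in the results was not tested. Over the 20 arrays, the brighter genes whose levels were most like MCL1 were CTNNB1 (Pearson r = 0.918), RTN4 (0.902) and SET (0.901), a description over arrays that share groups and this axis. Without the 4 arrays at that end of the axis, the late G1 difference of MCL1 was 0.10.

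Other transcripts fell in late G1. IER3, an immediate early gene with a short-lived transcript, fell by 3.74 ± 0.46 in late G1 against the other arrests (adjusted p = 0.000295), and its 3 late G1 intensities were near 0. The mean of the other arrests was carried by the S arrests, at 6.38 in late S and 5.03 in early S, against 2.14 in early G1 and 1.48 in G2/M. IER3 rose by 3.75 in late S against CDT + DHT (adjusted p = 0.0293), a call lost in 8 of 30 alternatives. Against CDT + DHT, IER3 fell by 2.61 in late G1 (adjusted p = 0.0487), a call lost in 20 of 30 alternatives. Against early G1 the late G1 difference of -2.12 did not pass (adjusted p = 0.338). POLR2A, which encodes the large subunit of RNA polymerase II, fell by 2.83 ± 0.42 against the other arrests (adjusted p = 0.00208). With a pseudocount of 16 the differences of IER3 and POLR2A from the other arrests were -1.16 and -1.38, and both still passed. MYC, at 0.20 ± 0.37 (adjusted p = 0.917), and JUNB, at -0.67 ± 0.46 (adjusted p = 0.687), did not pass. The difference between MCL1 and IER3 was not tested.

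**Figure D4:**
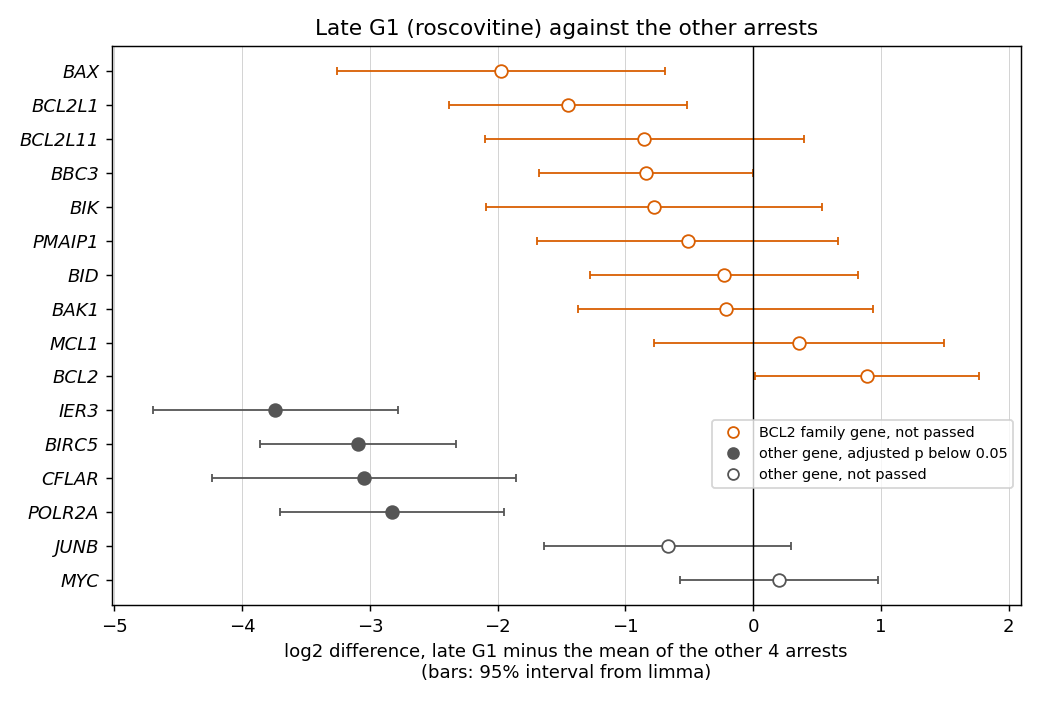
Difference between late G1 and the mean of the other 4 arrests on the log2 scale (horizontal axis) for the 10 BCL2 family genes and 6 other genes, with bars for the 95% interval from limma and filled points for an adjusted p below 0.05. BAX at -1.97 and BCL2L1 at -1.45 lie lowest among the family without passing, MCL1 lies at 0.36, and IER3, BIRC5, CFLAR and POLR2A passed.

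The wider family gave no call. Of 12 further BCL2 family genes listed, 11 were measured (BCL2L2 had no feature with only its symbol), and 0 passed in any comparison. At an unadjusted p under 0.05, limma put 2 of the 11 below in late G1 against the other arrests, where 10.5% of all genes passed it. It put 1 each way in late G1, late S and G2/M against CDT + DHT, where 14.0%, 10.2% and 15.1% of all genes passed it. In the other comparisons, where 2.30% to 9.06% of all genes passed it, at most 1 of the 11 did. BCL2L15 had the smallest p of these in the F test (adjusted p = 0.700), with late G1 arrays near 0 and an early S mean of 2.47 ± 0.48 (SD, n = 2). It was dim, and its lowest array was near 0 in CDT, CDT + DHT, early G1 and late S as well, with means of 0.57 to 0.84. BAD, a BH3-only protein governed by survival kinases, followed (adjusted p = 0.727), with its highest mean in early S at 4.30 ± 0.78 (SD, n = 2) and its lowest in late S at 2.03 ± 1.13 (SD, n = 3). BCL2A1, an NF-κB-driven guardian, was next (adjusted p = 0.894). The median difference of the 11 in late G1 against the other arrests was -0.12, against -0.64 for the 10 members.

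Among genes that act before or after the mitochondrion, 25 of 28 listed were measured, and 2 passed, both lower in late G1. BIRC5 (survivin), an inhibitor of apoptosis protein that is also part of the mitotic chromosomal passenger complex, fell by 3.09 ± 0.37 in late G1 against the other arrests (adjusted p = 0.000245) and by 3.64 ± 0.46 against CDT + DHT (adjusted p = 0.000782). Against CDT it fell by 2.89 (adjusted p = 0.0103), a call lost in 4 of 31 alternatives, among them those without CDT replicate 1, CDT replicate 2 or late G1 replicate 3. The call against CDT + DHT was lost in 1 of 31, the fit restricted to late G1 and CDT + DHT. BIRC5 passed the F test (adjusted p = 0.00290). CFLAR (c-FLIP), the inhibitor of caspase-8 at death receptors, fell by 3.05 ± 0.57 in late G1 against the other arrests (adjusted p = 0.0129). It passed in no other comparison and did not pass the F test (adjusted p = 0.142). Its late G1 mean was 1.52 ± 1.29 (SD, n = 3) and the other groups had means of 4.07 to 4.91. The CFLAR call was lost without late G1 replicate 1, at -2.30 (adjusted p = 0.131), and with the mean of its features in place of the brightest, at -1.62 (adjusted p = 0.109), and the difference was -1.11 with a pseudocount of 16. DIABLO, which relieves caspases of their inhibitors, came after BIRC5 and CFLAR in the F test (adjusted p = 0.875). The other members of this list passed in no comparison. The median difference of the 25 in late G1 against the other arrests was -0.07, close to the -0.09 of all genes.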

How the data were processed

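Trizol-extracted RNA of LNCaP cells was amplified (NuGEN Ovation Pico WTA V2) and biotin-labelled, per the labels' protocols. The deposited values are linear probe set intensities, for which the submitters' processing notes name Affymetrix Expression Console 1.1. How probes were summarised and arrays normalized by the authors is not given in the sources used here, and the linear scale was read from the values. Of 33297 features, 19460 carried 1 gene symbol, 1754 carried several, and 12083 were not listed in the annotation. The first gave 18417 genes by their brightest feature. log2(intensity + 1) was tested in R 4.3.3 by limma 3.58.1, with default lmFit and eBayes, in a single two-sided fit of the 20 arrays with a coefficient for each group. P-values were adjusted by Benjamini-Hochberg over all genes, and the threshold was 0.05. The number of arrays limits the precision.

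The members, lists and alternatives were chosen with earlier results of these data known. The genes named were the 10 members, the listed genes that passed and up to 3 more per list by the F test, CDKN1A, MDM2, MYC, IER3, JUNB and POLR2A, and the 3 genes most like MCL1. The remaining list members are given as counts. Alternatives were quantile normalization, centred arrays, a pseudocount of 16, only brighter genes, the mean of features, array weights, eBayes with trend and robust, a test of every feature, the replicate block, only the compared groups, and leaving out 4 arrays that stand apart or each array in turn. Promoter motifs were searched in RefSeq windows.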

Additional observations from a re-analysis of the deposited data

How the results depend on the processing

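Counts of the 10 members past an adjusted p of 0.05 were 0 in every comparison and stayed 0 under most alternatives. In late G1 against CDT + DHT, 1 member passed with only brighter genes and 1 with eBayes with trend and robust (BAX in both), 3 passed with array weights (BAX, BIK and BCL2L1), and leaving out each array gave 0 to 1. In late S against CDT + DHT, a pseudocount of 16 gave 1 (BBC3) and array weights 3 (BBC3, BAK1 and BIK). In G2/M against CDT + DHT, a pseudocount of 16 gave 1, array weights 1 and leaving out each array 0 to 1 (BAK1 each time). In late G1 against the other arrests, array weights gave 2 (BAX and BCL2L1), leaving out the 4 arrays that stood apart gave 1 (BAX), and leaving out each array gave 0 to 1 (BAX). In the S arrests together against early G1, a pseudocount of 16 gave 1 (BBC3). In the F test, a pseudocount of 16, only brighter genes, trend and robust, and array weights gave 1 each, and leaving out each array 0 to 1 (BBC3 each time, without early G1 replicate 3). The cause of these gains was not tested. With array weights many more genes passed, 1776 in late S against CDT + DHT in place of 13.

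Of 4312 alternatives of the 140 member differences, 129 changed sign, 0 of them among the 28 differences with an unadjusted p under 0.05. Quantile normalization moved the median of all genes in late G1 against CDT by 0.12. Centring the arrays moved it by 0.10 there and by 0.12 in CDT + DHT against CDT. The replicate block gave 0 calls among the members in all comparisons. Arrays of the same number did not deviate together, with a mean correlation of -0.02 over 57 pairs against 0.01 over 114 pairs of different numbers, and 6 of 20 arrays correlated best with their own number. No group has over 3 arrays, and dim members such as BAK1 and BCL2L11 depend most on the pseudocount.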
